A study of Homo sapiens with 6 samples.

Results

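The genes described here are 30 enzymes and regulators of cholesterol and fatty acid synthesis, listed by name as the sterol regulatory element-binding protein (SREBP) pathway. No rule on their values was used, but earlier results of these data were known when they were chosen. They are 30 of 60617 gene IDs with a value in each library. All 30 were among the 16555 genes that passed the filter on low values and were tested. RNA-seq was available from 6 libraries of melanoma cell lines, 2 for each of 3 groups. PBRT16 and PBRT15 are lines from tumors resistant to a paradox-breaking BRAF inhibitor, both derived from 1205Lu TR, and were treated with 500 nM of the BRAF inhibitor PLX8394. The parental group is 1205Lu TR in DMSO, a 1205Lu derivative that carries a GAL4-ELK1 reporter and is labelled drug sensitive. All 3 lines derive from 1205Lu, a human melanoma line with mutant BRAF, and grew in MCDB153 and Leibowitz L-15 media with fetal bovine serum and insulin.

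Each PBRT line is a single resistant line, so a difference from parental cells combines the line with its drug, and these cannot be told apart. Nothing in the labels says that the paired libraries were grown as separate cultures. The p-values therefore reflect only how far these libraries differ, which may be technical. In bulk RNA, fewer cells of a type and less RNA per cell cannot be told apart.

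SREBPs are membrane-bound transcription factors that are held in the endoplasmic reticulum by SCAP and the INSIG proteins while sterols are plentiful. When sterols fall, SCAP carries them to the Golgi, where proteases release the active part, which enters the nucleus and binds promoters together with the CCAAT-binding factor NF-Y. SREBF2 encodes the form known mainly for cholesterol synthesis genes, and SREBF1 encodes forms known mainly for fatty acid synthesis genes. Because nearly all genes of both routes share this control, their mRNAs are known to respond together to the sterol supply.

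To show what the members share in sequence, windows of 250 bases before to 50 bases after the transcription start were taken from RefSeq on GRCh38.p14 for 26 of the 30 members. Of ACAT2, FDFT1, SQLE and FASN no window was used. The NF-Y box CCAAT, searched on both strands, occurred in 20 of 26 members (76.9%), against 39.7% of 27305 genes with a window and 42.8% of 11611 tested genes. Counted by windows, 24 of 35 member windows (68.6%) held it, against 34.6% of 35116. The core of the sterol regulatory element, searched as CACCNCAC on both strands, occurred in SCD and SREBF2 only. These are 2 of 26 members (7.69%), against 7.23% of genes and 7.96% of tested genes. The palindrome TCACGTGA occurred in INSIG1 only, at position -56 from its start. This is 1 of 26 members (3.85%), against 1.18% of genes and 2.14% of tested genes. The 3 motifs do not contain one another. A match is a description and not a binding site, and a missing match concerns only these letters in this window.

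The 4 upstream windows of 250 bases below belong to members with the largest change shared in direction by both resistant lines, with capitals marking CCAAT or its reverse complement ATTGG. TM7SF2, which fell in both lines, and LSS, which rose in both, each held 1 box, at positions -74 and -150 from the start. HMGCS1 and MSMO1, whose differences from parental cells did not pass the test, held 2 and 4 boxes. A second window of HMGCS1, from another start, held 0.
TM7SF2 (chr11:65111622-65111871, plus strand): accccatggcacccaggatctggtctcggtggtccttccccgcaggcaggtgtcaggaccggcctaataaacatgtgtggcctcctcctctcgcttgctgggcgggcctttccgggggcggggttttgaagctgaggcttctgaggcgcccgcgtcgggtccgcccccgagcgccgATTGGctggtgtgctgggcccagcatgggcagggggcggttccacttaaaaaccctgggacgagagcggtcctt
LSS (chr21:46228775-46229024, minus strand): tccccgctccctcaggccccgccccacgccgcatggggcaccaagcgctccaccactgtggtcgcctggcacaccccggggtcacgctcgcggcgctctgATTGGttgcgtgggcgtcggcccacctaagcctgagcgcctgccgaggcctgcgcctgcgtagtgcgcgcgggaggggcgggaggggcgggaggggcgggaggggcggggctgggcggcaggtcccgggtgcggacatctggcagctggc
HMGCS1 (chr5:43313413-43313662, minus strand): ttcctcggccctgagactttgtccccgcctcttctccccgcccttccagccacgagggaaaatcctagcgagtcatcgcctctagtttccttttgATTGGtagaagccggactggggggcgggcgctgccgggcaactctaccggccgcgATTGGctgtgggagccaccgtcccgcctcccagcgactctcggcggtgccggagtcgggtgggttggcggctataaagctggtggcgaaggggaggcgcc
MSMO1 (chr4:165327419-165327668, plus strand): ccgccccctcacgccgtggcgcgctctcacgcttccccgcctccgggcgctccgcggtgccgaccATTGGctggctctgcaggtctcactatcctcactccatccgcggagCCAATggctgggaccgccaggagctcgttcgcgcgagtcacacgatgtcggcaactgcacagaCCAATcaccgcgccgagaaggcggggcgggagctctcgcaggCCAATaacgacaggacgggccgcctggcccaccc
The boxes of HMGCS1 began at positions -155 and -100, and those of MSMO1 at -185, -139, -76 and -34. MVK and NSDHL, which rose in PBRT15, each had 5 matches in their windows and MVD had 3, while LSS rose there with 1. MSMO1, with 4, did not pass in PBRT15, nor did FDPS, with matches at -176, -122 and -51. Whether the number of boxes goes with the changes was not tested.

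Deposited values summed to between 27877963 and 29580752 per library, which after normalization is no measure of depth. In each library 22071 to 23454 genes had a value above 0, and the 2 libraries of a line correlated across all genes with Pearson's r of 0.984 to 0.986. The labelled melanoma identity was checked with 9 melanocyte lineage markers, whose summed values were 2214 to 2242 in PBRT16 and 854.2 to 990.8 in PBRT15, against 16620 to 19500 in parental cells. SOX10, the neural crest transcription factor, had 1.49 and 0.778 in PBRT16 and 0 and 0.791 in PBRT15, against 4360 and 4103 in parental cells. MITF, the melanocyte regulator, had 2209 and 2159 in PBRT16 and 823 and 927 in PBRT15, against 109 and 113 in parental cells. S100B, a calcium-binding protein of neural crest lineages, had 1.15 and 1.22 in PBRT16 and 0 and 1.67 in PBRT15, against 10992 and 8075 in parental cells. MIA, a protein secreted by melanoma cells, had 0 and 0 in PBRT16 and 6.98 and 38.2 in PBRT15, against 4005 and 4307 in parental cells. Parental cells thus held SOX10, S100B and MIA, which were at or near 0 in most resistant libraries, and the resistant lines had more MITF. TYR was at 0 in all 6 libraries. Of 7 fibroblast markers, summed values were 18800 to 25110 in PBRT16 and 116600 to 126800 in PBRT15, against 6029 to 6914 in parental cells. These markers did not move together. COL1A1, PDGFRB and DCN rose in both lines. COL1A2 had 19.9 and 15.4 in PBRT16 and 38540 and 41287 in PBRT15, against 14 and 23.2 in parental cells. PDGFRA fell in PBRT16 and rose in PBRT15 (adjusted p = 0.0344 and 0.00666, limma). COL3A1 was at most 35.7 and passed in neither line, and LUM was at or near 0 throughout. The 4 endothelial markers summed to at most 34.99, the 4 keratinocyte markers to at most 49.38, and the 6 immune markers to 2147 to 3125 in PBRT16 and 2201 to 2727 in PBRT15, against 818.7 to 1262 in parental cells. Nearly all of the immune sum was CD68, a lysosomal protein known as a macrophage marker, which rose in both lines (adjusted p = 0.0229 and 0.0273, limma), with PTPRC at most 2.72 and CD3E at 0 in all libraries. The part of these marker differences in the results below was not tested.

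The 30 genes differed together between the 2 libraries of a line. In PBRT16, replicate 2 was above replicate 1 for 27 of 30 members (90%), against 50.9% of all tested genes. In PBRT15, replicate 1 was above replicate 2 for 25 of 30 members (83.3%), against 48.7% of all tested genes. In parental cells, replicate 1 was above replicate 2 for 27 of 30 members (90%), against 49.2% of all tested genes. The median absolute log2 difference between libraries was 0.493 for members against 0.185 for all genes in PBRT16, and 0.443 against 0.183 in parental cells. In PBRT15 it was 0.230 against 0.204, so the sizes differed little there.

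All 3 directions held together for 22 of 30 members (73.3%) and for 1672 of 16555 tested genes (10.1%), a pattern chosen after its values were seen. The exceptions were PMVK, TM7SF2, SREBF1, SREBF2, SCAP, SCD, ELOVL6 and FADS1. The labels give the replicate numbers no further meaning, so no order of the libraries was assumed. SCD, which makes monounsaturated fatty acids, had 32752 and 70300 in PBRT16, 69189 and 73811 in PBRT15, and 47477 and 30794 in parental cells. PBRT16 replicate 2 thus had 2.15 times the value of replicate 1, and parental replicate 1 had 1.54 times the value of replicate 2, while the PBRT15 libraries lay close together. INSIG1, which retains SCAP in the endoplasmic reticulum and is itself an SREBP target, had 2146 and 4281 in PBRT16, 8642 and 6313 in PBRT15, and 5393 and 2562 in parental cells. Its PBRT16 and parental ranges overlapped, and both PBRT15 libraries were above all others.

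**Figure D1:**
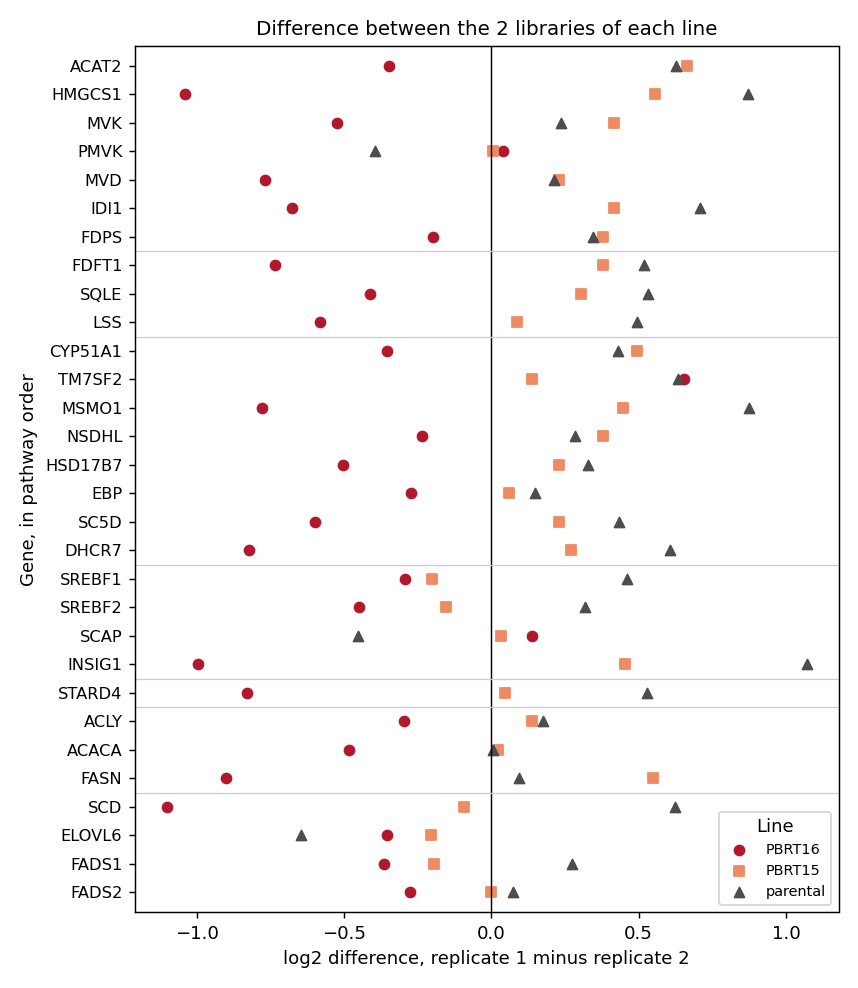
Log2 difference between replicate 1 and replicate 2 (x axis) of each of the 30 genes (y axis, in pathway order), with circles for PBRT16, squares for PBRT15 and triangles for parental cells. In PBRT16, 27 of 30 circles lie left of 0, whereas 25 squares and 27 triangles lie right of 0.

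The same libraries stood high or low for most members. Relative to each gene's mean over the 6 libraries on the log2 scale, the median member was at -0.41 and 0.03 in PBRT16, at 0.42 and 0.27 in PBRT15, and at -0.09 and -0.35 in parental cells. PBRT16 replicate 1 and parental replicate 2 were the lowest, and of their 30 members 4 and 7 were above their own mean. In PBRT15 replicate 1, 25 members were above their own mean, and in PBRT15 replicate 2, 22 were. These medians were further apart between the 2 PBRT16 libraries than between PBRT16 replicate 1 and parental replicate 2.

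**Figure D2:**
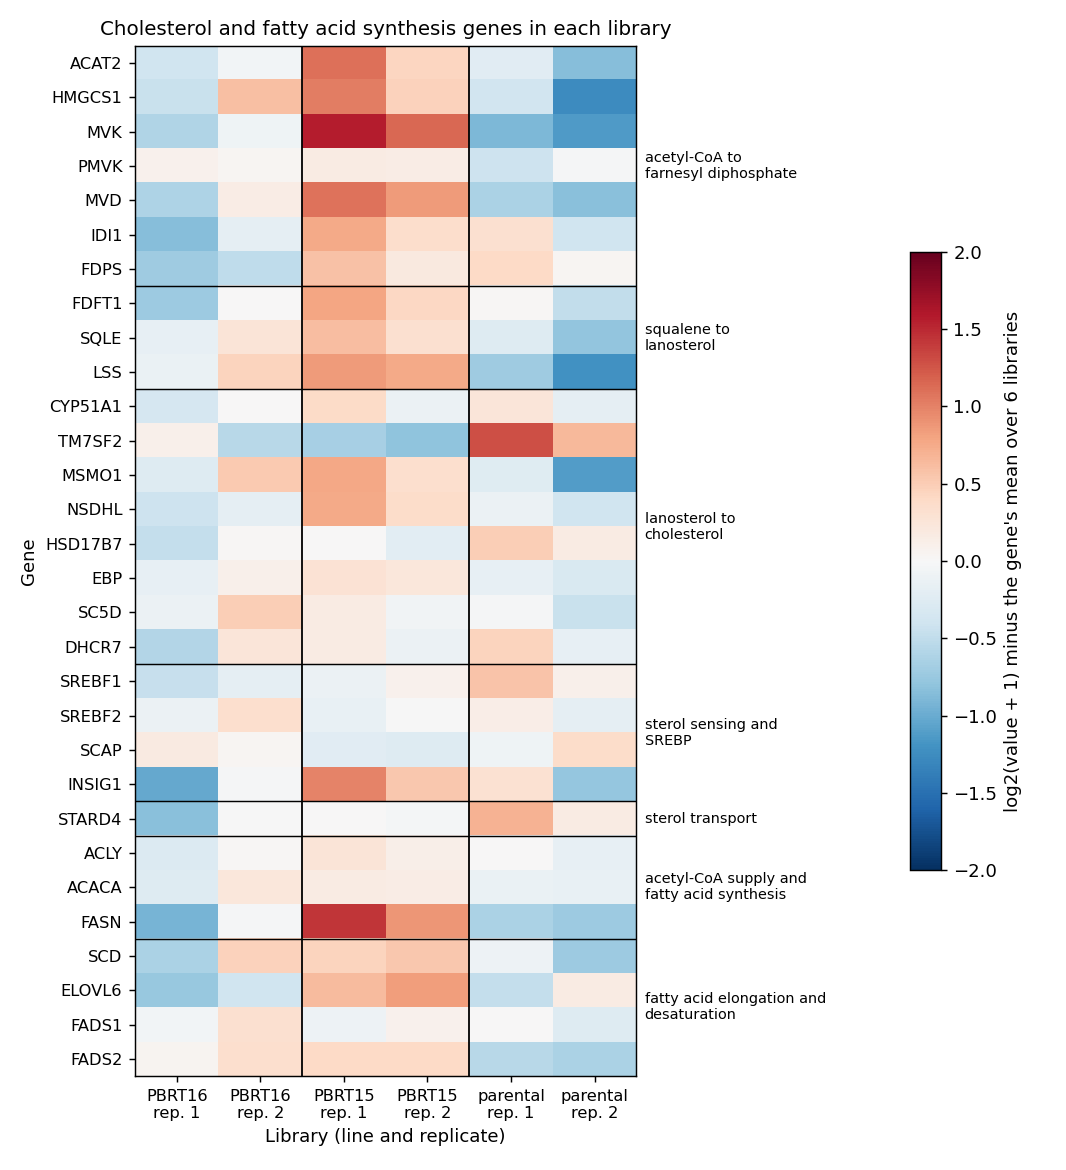
Heat map of log2(value + 1) minus the gene's mean over 6 libraries (color), with the 30 genes in rows grouped by role and the 6 libraries in columns. The columns of PBRT15 are mostly above the mean (25 and 22 genes), and in PBRT16 replicate 1 only 4 genes are above it.

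To ask how synthesis genes differed in each resistant line, limma was fitted on log2(value + 1) and a gene was said to have risen or fallen at an adjusted p (Benjamini-Hochberg over all 16555 genes) of at most 0.05. Log2 fold changes below are on this scale and are given with the standard error. In PBRT16 against parental cells, 2 members rose (6.67%) and 2 fell (6.67%), against 21.1% and 19% of all tested genes. In PBRT15 against parental cells, 9 members rose (30%) and 1 fell (3.33%), against 21.6% and 19.5% of all tested genes. The median log2 fold change of the members was 0.13 in PBRT16 and 0.54 in PBRT15, while that of all tested genes was 0.00 and -0.01. Both comparisons share the parental libraries. No test of the list as a whole was made.

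Counted without a test, both libraries of PBRT16 were above both parental libraries for 6 members and below them for 5, where all tested genes gave 37.7% and 38.4%. Both libraries of PBRT15 were above for 19 members and below for 5, where all tested genes gave 37% and 37.9%. The members not called are not shown to be unchanged.

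**Figure D3:**
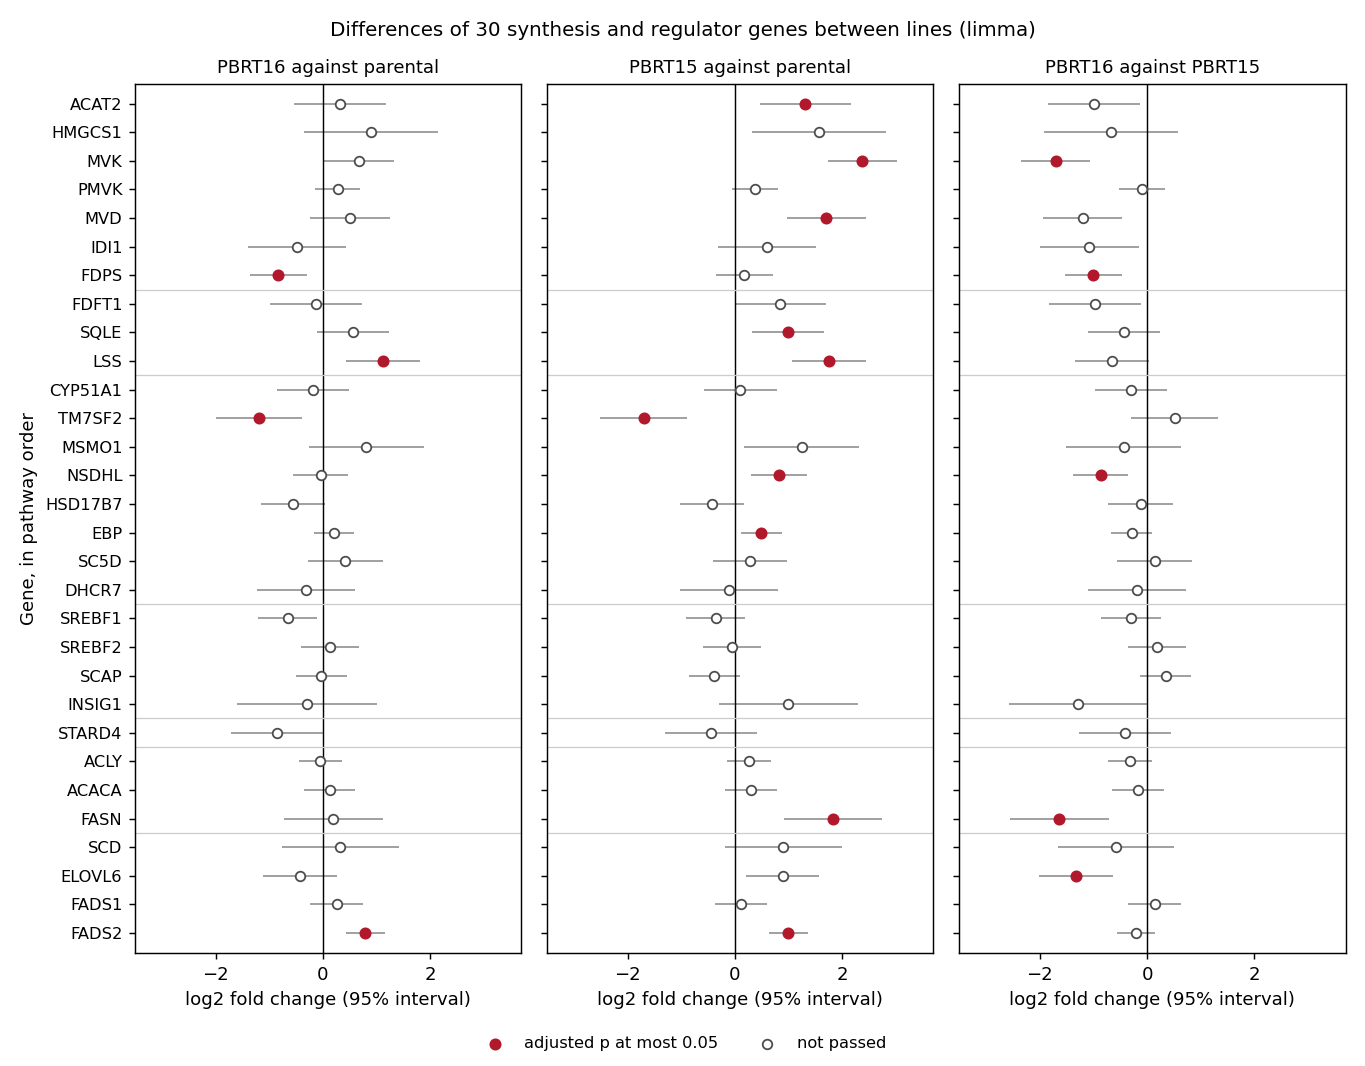
Log2 fold change with its 95% interval from limma (x axis) for each of the 30 genes (y axis, in pathway order) in PBRT16 against parental, PBRT15 against parental, and PBRT16 against PBRT15 cells. Filled points passed at an adjusted p of at most 0.05, which were 4, 10 and 5 genes.

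In the steps to farnesyl diphosphate, 3 of 7 genes rose in PBRT15 and none fell, while in PBRT16 FDPS fell and 0 rose (1 at an unadjusted p under 0.05, limma). MVK (ENSG00000110921, chr12:109573255-109598125), the kinase that acts first on mevalonate, had 337 and 485 in PBRT16 and 1523 and 1142 in PBRT15, against 275 and 233 in parental cells. Its PBRT15 libraries were far above the other 4, with a log2 fold change of 2.38 ± 0.25 against parental cells (adjusted p = 0.00259, limma), and 0.68 ± 0.25 in PBRT16 (adjusted p = 0.0882). MVD, which forms isopentenyl diphosphate, had 301 and 513 in PBRT16 and 979 and 835 in PBRT15, against 298 and 257 in parental cells. It rose by 1.71 ± 0.29 in PBRT15 (adjusted p = 0.00994, limma), and its difference in PBRT16 did not pass (adjusted p = 0.214, limma).

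ACAT2, which condenses acetyl-CoA at the entry of the pathway, had 1357 and 1727 in PBRT16 and 3833 and 2420 in PBRT15, against 1526 and 987 in parental cells. It rose by 1.31 ± 0.33 in PBRT15 (adjusted p = 0.0322, limma), and its PBRT16 and parental libraries overlapped. HMGCS1, which makes HMG-CoA, had 5729 and 11785 in PBRT16 and 15882 and 10792 in PBRT15, against 5973 and 3267 in parental cells. Its differences from parental cells were 0.90 ± 0.48 in PBRT16 and 1.57 ± 0.48 in PBRT15, with adjusted p-values of 0.195 and 0.0546 (limma), so neither passed.

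FDPS (ENSG00000160752, chr1:155308748-155320666), the synthase of farnesyl diphosphate, fell in PBRT16 and did not pass in PBRT15. It had 3077 and 3530 in PBRT16 and 7517 and 5781 in PBRT15, against 6590 and 5185 in parental cells. Both PBRT16 libraries were below the other 4, with a log2 fold change of -0.83 ± 0.20 (adjusted p = 0.0310, limma), while PBRT15 and parental cells overlapped. IDI1, the isomerase of isopentenyl diphosphate, had 1676 and 2676 in PBRT16 and 5164 and 3869 in PBRT15, against 3781 and 2316 in parental cells. PMVK, the next kinase after MVK, had 743 and 723 in PBRT16 and 785 and 782 in PBRT15, against 528 and 693 in parental cells. Neither IDI1 nor PMVK passed in either line.

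From squalene to lanosterol, 2 of 3 genes rose in PBRT15 and 1 in PBRT16. LSS (ENSG00000160285, chr21:46188141-46228824), the cyclase that forms lanosterol, had 2713 and 4056 in PBRT16 and 5351 and 5036 in PBRT15, against 1817 and 1289 in parental cells. The 3 lines did not overlap, and LSS rose by 1.12 ± 0.27 in PBRT16 (adjusted p = 0.0280, limma) and by 1.76 ± 0.27 in PBRT15 (adjusted p = 0.00741, limma). Its PBRT16 call was lost without a filter on low values, with a replicate block and with 4 libraries in the fit. SQLE, the epoxidase of squalene, had 2226 and 2959 in PBRT16 and 3829 and 3096 in PBRT15, against 2090 and 1445 in parental cells. It rose by 0.99 ± 0.26 in PBRT15 (adjusted p = 0.0359, limma) and differed by 0.56 ± 0.26 in PBRT16 (adjusted p = 0.144). FDFT1, which joins farnesyl diphosphate into squalene, had 2472 and 4114 in PBRT16 and 7130 and 5480 in PBRT15, against 4169 and 2906 in parental cells, and passed in neither line.

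From lanosterol to cholesterol, 2 of 8 genes rose and 1 fell in PBRT15, and 1 fell in PBRT16. TM7SF2 (ENSG00000149809, chr11:65111845-65116384), a sterol reductase, had 39.2 and 24.6 in PBRT16 and 22.6 and 20.4 in PBRT15, against 90.2 and 57.8 in parental cells. It was lower in all 4 resistant libraries and fell by 1.19 ± 0.31 on the log2 scale in PBRT16 (adjusted p = 0.0366, limma) and by 1.70 ± 0.31 in PBRT15 (adjusted p = 0.0130, limma). Its PBRT16 call was lost without a filter on low values and with 4 libraries in the fit. NSDHL, which removes a carboxyl group in sterol demethylation, had 368 and 433 in PBRT16 and 829 and 636 in PBRT15, against 452 and 372 in parental cells. EBP, a sterol isomerase, had 462 and 558 in PBRT16 and 633 and 607 in PBRT15, against 463 and 418 in parental cells. NSDHL and EBP rose in PBRT15 by 0.82 ± 0.20 and 0.49 ± 0.15 (adjusted p = 0.0288 and 0.0488, limma) and overlapped parental cells in PBRT16. The call of EBP was lost in most of the other settings run. Among them were scaling to the library total, quantile normalization, no filter on low values, a replicate block and 4 libraries in the fit.

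MSMO1, the sterol methyl oxidase, had 2953 and 5060 in PBRT16 and 6079 and 4461 in PBRT15, against 2981 and 1625 in parental cells, and its difference of 1.24 ± 0.41 in PBRT15 did not pass (adjusted p = 0.0678, limma). HSD17B7, a ketoreductase of sterol synthesis, had 204 and 290 in PBRT16 and 287 and 245 in PBRT15, against 400 and 318 in parental cells, and was lower without passing. CYP51A1, SC5D and DHCR7, enzymes of lanosterol demethylation and of the last desaturation and reduction steps, overlapped parental cells in both lines. DHCR7 had 1711 and 3024 in PBRT16 and 2860 and 2369 in PBRT15, against 3485 and 2288 in parental cells. The log2 fold changes of these 3 genes lay between -0.31 and 0.42 and none passed.

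Of the 4 genes of sterol sensing, 0 passed in either line, and 1, SREBF1, had an unadjusted p under 0.05 in PBRT16 (limma). SREBF1 had 1343 and 1643 in PBRT16 and 1705 and 1958 in PBRT15, against 2752 and 1999 in parental cells. Its difference was -0.66 ± 0.21 in PBRT16 (adjusted p = 0.0633, limma) and -0.36 ± 0.21 in PBRT15 (adjusted p = 0.233), with both lines below both parental libraries. SREBF2 had 4988 and 6812 in PBRT16 and 4875 and 5419 in PBRT15, against 5952 and 4776 in parental cells, overlapping in both lines. SCAP, the escort of SREBPs, had 1116 and 1012 in PBRT16 and 842 and 823 in PBRT15, against 930 and 1271 in parental cells. INSIG1, with the values above, differed by -0.29 ± 0.50 in PBRT16 and by 0.99 ± 0.50 in PBRT15 (adjusted p = 0.668 and 0.176, limma). STARD4, a sterol transport protein, had 1207 and 2147 in PBRT16 and 2175 and 2105 in PBRT15, against 3481 and 2414 in parental cells, and was below parental cells in both lines without passing (adjusted p = 0.101 and 0.338, limma).

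In fatty acid synthesis, FASN (ENSG00000169710, chr17:82078338-82098294) rose in PBRT15 and the enzymes that feed it did not pass. FASN, the fatty acid synthase, had 3689 and 6887 in PBRT16 and 18927 and 12939 in PBRT15, against 4547 and 4256 in parental cells. It rose by 1.83 ± 0.35 in PBRT15 (adjusted p = 0.0152, limma), whereas the PBRT16 libraries lay on both sides of the parental ones (0.20 ± 0.35, adjusted p = 0.686). ACLY, which supplies cytosolic acetyl-CoA, had 7627 and 9370 in PBRT16 and 10993 and 9978 in PBRT15, against 9264 and 8196 in parental cells. ACACA, which makes malonyl-CoA, had 3530 and 4928 in PBRT16 and 4725 and 4651 in PBRT15, against 3827 and 3811 in parental cells. In PBRT15 ACLY differed by 0.27 ± 0.16 and ACACA by 0.30 ± 0.19 on the log2 scale, and neither passed.

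Among the genes of elongation and desaturation, FADS2 (ENSG00000134824, chr11:61792980-61867354) rose in both lines with little spread. This desaturase of polyunsaturated fatty acids had 467 and 567 in PBRT16 and 593 and 593 in PBRT15, against 304 and 289 in parental cells. The log2 fold change was 0.79 ± 0.14 in PBRT16 (adjusted p = 0.0114, limma) and 1.00 ± 0.14 in PBRT15 (adjusted p = 0.00581, limma). Its partner desaturase FADS1 had 4855 and 6247 in PBRT16 and 4662 and 5333 in PBRT15, against 5075 and 4193 in parental cells, overlapping in both lines. ELOVL6, which elongates saturated and monounsaturated chains, had 405 and 518 in PBRT16 and 1063 and 1226 in PBRT15, against 493 and 772 in parental cells. Its difference of 0.89 ± 0.27 in PBRT15 (adjusted p = 0.0515, limma) did not pass, nor did that of SCD (0.90 ± 0.42, adjusted p = 0.148).

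**Figure D4:**
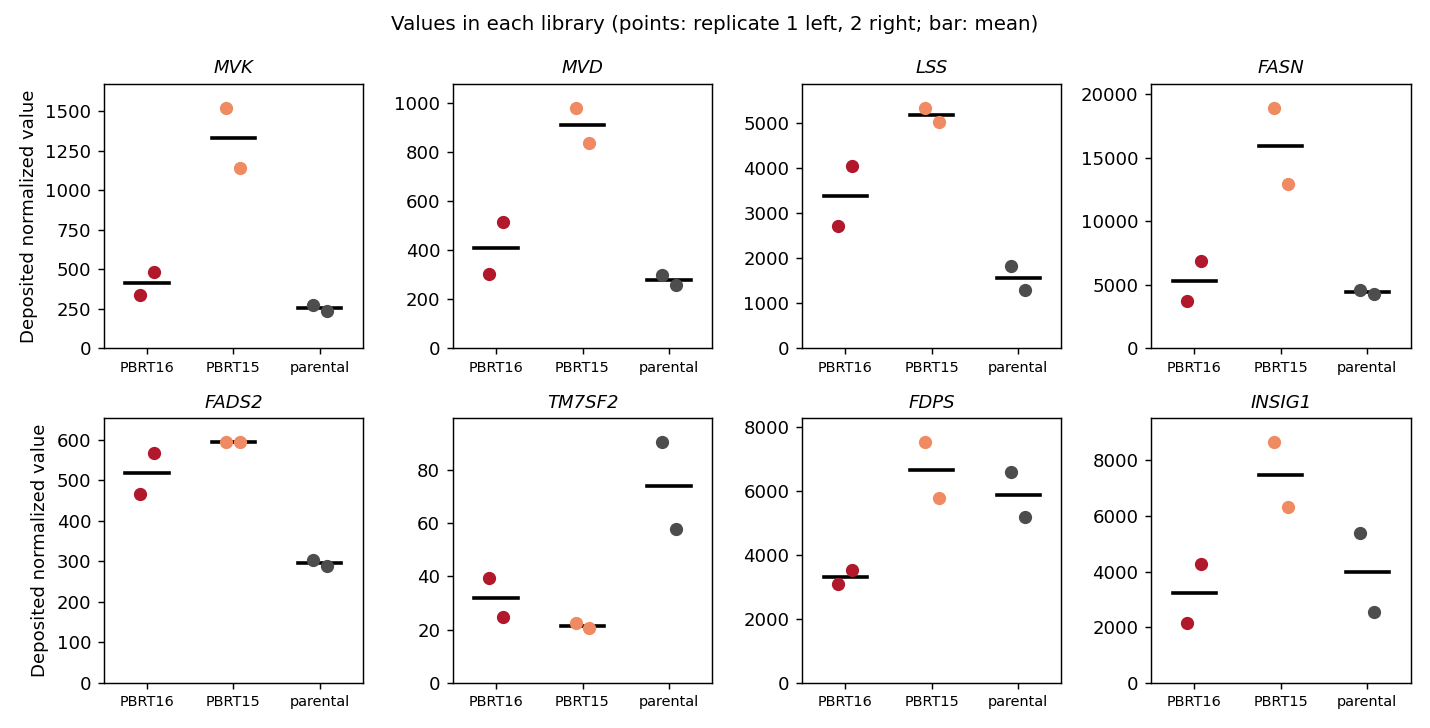
Deposited normalized value (y axis, from 0) of 8 genes in PBRT16, PBRT15 and parental cells (x axis), each point 1 library and each bar the mean of 2. In the MVK panel the PBRT15 libraries (1523 and 1142) lie above all others, and in the TM7SF2 panel the parental libraries (90.2 and 57.8) do.

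Fewer genes passed when 1 library was left out, among all genes as among the members. With 1 library left out, 14.1% to 18.9% of all tested genes rose in PBRT15 and 12.5% to 19.5% in PBRT16. In PBRT15 against parental cells, 3 members rose without PBRT15 replicate 1, 7 without PBRT15 replicate 2, 5 without parental replicate 1, 4 without parental replicate 2, and 6 without PBRT16 replicate 1 or PBRT16 replicate 2. MVK, LSS and FADS2 rose in PBRT15 in each of these fits, while TM7SF2 no longer passed without either PBRT15 replicate or without parental replicate 1. In PBRT16 against parental cells, 3 members rose without PBRT16 replicate 1 (MVD, LSS and FADS2) and 0 without PBRT16 replicate 2, without parental replicate 1 or without parental replicate 2. Only FADS2 rose and only FDPS fell in PBRT16 without PBRT15 replicate 1 or without PBRT15 replicate 2. Which members fell in PBRT16 also depended on the library left out, and in each of these fits fewer of all tested genes fell than with all libraries. The median of the members in PBRT16 against parental cells was 0.30 without PBRT16 replicate 1 and -0.13 without PBRT16 replicate 2.

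To ask whether the resistant lines differed from each other, PBRT16 was set against PBRT15, both in PLX8394. By limma 0 members rose and 5 fell in PBRT16 (16.7%), against 7.5% and 8.28% of all tested genes. At an unadjusted p under 0.05 (limma), 0 were higher and 9 lower, and the share of all tested genes at this threshold was not counted. The median log2 fold change was -0.42 for the members and 0.00 for all tested genes, and 25 of 30 members were negative. Both PBRT16 libraries were below both PBRT15 libraries for 17 members and above for 2, where all tested genes gave 31.8% and 30.9%.

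The 5 genes were spread over the routes, with 2 in the mevalonate steps, 1 in late sterol synthesis and 2 in fatty acid synthesis. MVK fell by 1.70 ± 0.25 on the log2 scale (adjusted p = 0.0181, limma) and FASN by 1.63 ± 0.35 (adjusted p = 0.0432, limma). ELOVL6 fell by 1.32 ± 0.27 (adjusted p = 0.0375, limma), with 405 and 518 in PBRT16 against 1063 and 1226 in PBRT15. FDPS fell by 1.00 ± 0.20 (adjusted p = 0.0383, limma) and NSDHL by 0.86 ± 0.20 (adjusted p = 0.0498, limma). The NSDHL call was lost in most of the other settings run. Among them were median-of-ratios scaling, quantile normalization, a pseudocount of 0.5, no filter on low values, a replicate block and 4 libraries in the fit. The FDPS and FASN calls were also lost with no filter, with a replicate block and with 4 libraries in the fit. MVK was lost with 4 libraries in the fit, and ELOVL6 with no filter. MVD differed by -1.20 ± 0.29 and INSIG1 by -1.28 ± 0.50 without passing (adjusted p = 0.0535 and 0.155, limma). LSS and FADS2, which rose in both lines against parental cells, differed between the lines by -0.65 ± 0.27 and -0.20 ± 0.14, with 95% intervals of -1.34 to 0.04 and -0.56 to 0.16. For TM7SF2 the interval was -0.29 to 1.32.

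With 1 library left out, 2.69% to 4.43% of all tested genes fell in PBRT16 against PBRT15, against 8.28% with 6 libraries. No member fell without PBRT16 replicate 1, without PBRT15 replicate 1 or without PBRT15 replicate 2, MVK, MVD and FASN fell without PBRT16 replicate 2, and ELOVL6 alone without either parental replicate. The median of the members was -0.15 without PBRT16 replicate 1 and -0.72 without PBRT16 replicate 2.

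The genes that process or degrade SREBPs and their partners did not share the replicate pattern, with replicate 2 higher for 8 of 15 in PBRT16 and replicate 1 higher for 9 of 15 in PBRT15 and 8 of 15 in parental cells. In PBRT16 against parental cells 6 of 15 rose (40%) and 1 fell (6.67%), against 21.1% and 19% of all tested genes. In PBRT15 3 rose (20%) and 2 fell (13.3%), against 21.6% and 19.5% of all tested genes. In PBRT16 against PBRT15 2 rose (13.3%) and 1 fell (6.67%), against 7.5% and 8.28% of all tested genes. INSIG2, the second INSIG protein, had 1497 and 3268 in PBRT16 and 421 and 525 in PBRT15, against 639 and 663 in parental cells. It rose in PBRT16 by 1.76 ± 0.39 against parental cells and by 2.23 ± 0.39 against PBRT15 (adjusted p = 0.0224 and 0.0268, limma), while the PBRT15 libraries were the lowest.

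Of the 3 subunits of NF-Y, whose box is marked in the windows printed above, NFYA fell, NFYB rose and NFYC passed in neither line against parental cells. NFYA had 795 and 826 in PBRT16 and 1116 and 1249 in PBRT15, against 1773 and 1519 in parental cells, and fell by 1.02 ± 0.14 and by 0.47 ± 0.14 (adjusted p = 0.00542 and 0.0474, limma). NFYB had 2482 and 2104 in PBRT16 and 2666 and 2904 in PBRT15, against 1121 and 1174 in parental cells, and rose by 0.99 ± 0.14 and 1.28 ± 0.14 (adjusted p = 0.00565 and 0.00273, limma). NFYC had 555 and 565 in PBRT16 and 523 and 489 in PBRT15, against 511 and 510 in parental cells. SP1, another factor known from these promoters, fell in PBRT16 against PBRT15 by 0.92 ± 0.12 (adjusted p = 0.0141, limma).

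Of 12 other SREBP target genes, 3 rose (25%) and 4 fell (33.3%) in PBRT16 against parental cells, where 21.1% and 19% of all tested genes did. In PBRT15 2 rose (16.7%) and 2 fell (16.7%), against 21.6% and 19.5% of all tested genes. The medians of the list were -0.23 and 0.31. ACSS2, which makes acetyl-CoA from acetate, had 804 and 880 in PBRT16 and 1104 and 1137 in PBRT15, against 3443 and 3220 in parental cells. It fell by 1.98 ± 0.12 and by 1.57 ± 0.12 (adjusted p = 0.000543 and 0.00103, limma), while FASN rose in PBRT15. ACSL3, an acyl-CoA synthetase, fell by 1.50 ± 0.21 in PBRT16 and by 1.03 ± 0.21 in PBRT15 (adjusted p = 0.00594 and 0.0182, limma). NPC1, which exports cholesterol from lysosomes, had 4392 and 4898 in PBRT16 and 2715 and 2192 in PBRT15, against 1934 and 1666 in parental cells, and rose by 1.37 ± 0.17 in PBRT16 (adjusted p = 0.00402, limma). Replicate 2 was higher for 11 of these 12 genes in PBRT16, with a median absolute log2 difference of 0.161, and replicate 1 for 7 of 12 in PBRT15 and 9 of 12 in parental cells.

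Liver X receptors (LXRs), their targets and cholesterol efflux had 9 tested genes. Against parental cells 3 rose in PBRT16 (33.3%) and 6 in PBRT15 (66.7%), where 21.1% and 21.6% of all tested genes did. Falls numbered 0 in both lines, against 19% and 19.5% of all tested genes. Also 0 fell at an unadjusted p under 0.05 (limma), a threshold at which all genes were not counted. NR1H3, which encodes LXR alpha, had 92.2 and 91.6 in PBRT16 and 155 and 124 in PBRT15, against 13.8 and 26.8 in parental cells. LIPA, the lysosomal acid lipase, had 3732 and 4191 in PBRT16 and 3594 and 3479 in PBRT15, against 1221 and 928 in parental cells. NR1H3 and LIPA rose in both lines (adjusted p at most 0.00697, limma). ABCA1, the cholesterol exporter, had 641 and 644 in PBRT16 and 1007 and 1470 in PBRT15, against 606 and 535 in parental cells, and rose in PBRT15 by 1.09 ± 0.21 (adjusted p = 0.0151, limma). MYLIP, a ubiquitin ligase induced by LXRs, rose in PBRT15 by 1.20 ± 0.15, and both MYLIP and ABCA1 fell in PBRT16 against PBRT15 by 1.10 ± 0.15 and 0.92 ± 0.21 (adjusted p = 0.0153 and 0.0495, limma).

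In the isoprenoid branch that leaves the pathway at farnesyl diphosphate, 4 of 12 genes fell in PBRT16 (33.3%) and 4 in PBRT15 (33.3%). Of all tested genes 19% and 19.5% fell. Rises numbered 2 in PBRT16 (16.7%) and 0 in PBRT15, against 21.1% and 21.6% of all tested genes. FNTB, a subunit of farnesyltransferase, fell by 1.24 ± 0.15 in PBRT15 (adjusted p = 0.0035, limma), and PDSS1, which makes the side chain of coenzyme Q, fell by 0.82 ± 0.19 in PBRT16 (adjusted p = 0.0255, limma). Among 9 tested elongases, desaturases and carboxylases outside the 30 genes, 5 rose (55.6%) and 2 fell (22.2%) in PBRT16, against these same 21.1% and 19%. In PBRT15 3 rose (33.3%) and 0 fell, against 21.6% and 19.5%. ELOVL2, which elongates polyunsaturated chains, had 1773 and 1694 in PBRT16 and 1184 and 1079 in PBRT15, against 287 and 199 in parental cells, and rose by 2.85 ± 0.20 and 2.24 ± 0.20 (adjusted p = 0.000892 and 0.00169, limma). SCD5, a second stearoyl-CoA desaturase, had 1797 and 1642 in PBRT16 and 1297 and 1115 in PBRT15, against 408 and 435 in parental cells, and rose in both lines, whereas SCD did not pass in either. FADS3 rose in PBRT16 against PBRT15 by 1.18 ± 0.11 (adjusted p = 0.00671, limma).

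Of 16 tested genes of fatty acid uptake and oxidation, 2 rose (12.5%) and 3 fell (18.8%) in each resistant line. Of all tested genes 21.1% rose and 19% fell in PBRT16, and 21.6% and 19.5% in PBRT15. CPT1C, a carnitine palmitoyltransferase known from brain, had 2.85 and 2.68 in PBRT16 and 263 and 269 in PBRT15, against 0.225 and 1.58 in parental cells. FABP5, a fatty acid binding protein, had 93.8 and 71.1 in PBRT16 and 143 and 64.6 in PBRT15, against 563 and 732 in parental cells, and fell in both lines (adjusted p = 0.0059 and 0.00749, limma). Of 9 lipid droplet and triglyceride genes, 3 rose (33.3%) and 0 fell in PBRT16, whereas PBRT15 had 4 rises (44.4%) and 2 falls (22.2%). The shares of all tested genes are those just given. PNPLA2, the triglyceride lipase, rose by 1.25 ± 0.16 in PBRT16 and by 1.35 ± 0.16 in PBRT15 (adjusted p = 0.00436 and 0.00338, limma). DGAT2, which makes triglycerides, had 582 and 608 in PBRT16 and 217 and 241 in PBRT15, against 658 and 657 in parental cells, and fell in PBRT15 by 1.52 ± 0.12 (adjusted p = 0.00113, limma). In PBRT16, replicate 2 was higher for 8 of these 9 genes, and replicate 1 was higher for 4 of 9 in PBRT15 and 4 of 9 in parental cells.

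Some values could include reads of a neighbour. On GRCh38 with GENCODE release 44, 9 of the 30 genes overlap another protein-coding gene, and the sources used here do not state whether counting used strand. FADS2 shares 29692 bases with FADS1 on the opposite strand and 4259 bases with FEN1 on its own strand, and FEN1 reached 3336, so the FADS2 values are uncertain. TM7SF2 shares 18 bases with VPS51 on its own strand, MVK 326 bases with MMAB and ACAT2 615 bases with TCP1 on the opposite strand. Named pseudogenes of 5 members reached at most 19.4.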

How the data were processed

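RNA-seq of 6 libraries was used. The authors prepared stranded mRNA libraries, sequenced them paired-end, used RSEM with GRCh38 and GENCODE gene models for quantification, and DESeq2 for testing, as the study's methods describe. Picard and STAR 2.6.1a also appear in the submitters' processing notes. The deposited signal is 1 normalized value per gene and library. How the authors normalized it was not found in these sources, and no single step per library turned it into whole reads, so no count test was run and the depth in reads is unknown. Median-of-ratios factors were 1.0004 to 1.0132.

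Of 60662 IDs, 45 pseudoautosomal copies were left out. Symbols and coordinates came from GENCODE release 44, matched without version for 60357 IDs. The filter on low values required 10 or more, after scaling by library total, in 2 or more libraries, and a sum of 15 or more. The 3 groups entered 1 linear model of log2(value + 1) in limma 3.58.1 (R 4.3.3), with 3 residual and 1.89 prior degrees of freedom and Benjamini-Hochberg adjustment. The pseudocount of 1 understates changes of low genes. The procedure was tested on simulated data.

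The 30 members, the 7 lists set beside them and the 5 marker lists were chosen with earlier results of these data known. All members and markers could be named, and of each other list the 2 largest rises and 2 largest falls that passed in a comparison. Some of these are not reported here. Sequences were to be shown for the 4 members outside chromosome 8 with the largest change of shared direction in both lines. Alternatives were other scalings, pseudocounts, filters, a prior spread fitted by expression level, a replicate block, protein-coding genes only, 4 libraries in the fit, a fold of at least 2, and leaving out each library.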

Additional observations from a re-analysis of the deposited data

Results flagged for a closer look

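Against parental cells, the effect in PBRT16 differed from that in PBRT15 for 5 of the 30 genes by the limma test of that difference, which is the comparison of PBRT16 with PBRT15 since both share the parental libraries. The difference of the 2 log2 effects was -1.70 for MVK, with 337 and 485 in PBRT16 against 1523 and 1142 in PBRT15. It was -1.63 for FASN, with 3689 and 6887 in PBRT16 against 18927 and 12939 in PBRT15. It was -1.32 for ELOVL6, -1.0 for FDPS and -0.86 for NSDHL. In each of these genes both PBRT16 libraries were below both PBRT15 libraries. Without PBRT16 replicate 1, without PBRT15 replicate 1 or without PBRT15 replicate 2, 0 of the 5 passed. In these fits 2.69% to 2.78% of all tested genes fell, against 8.28% with 6 libraries, and the log2 differences were -1.91 to -1.44 for MVK, -1.91 to -1.18 for FASN, -1.42 to -1.14 for ELOVL6, -1.19 to -0.81 for FDPS and -1.05 to -0.67 for NSDHL. Groups of 2 libraries allow no check for a single deviating library.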

How the results depend on the processing

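The counts of members that passed were low enough to move with several settings. Without a filter on low values, 29717 genes were tested, and 1 member rose and 0 fell in PBRT16 against parental cells, 5 rose in PBRT15 against parental cells, and 1 fell in PBRT16 against PBRT15. In that setting 9.49% of all genes rose and 7.61% fell in PBRT16, 9.74% rose in PBRT15 and 2.43% fell between the lines. These smaller shares came with more genes tested. With the prior spread fitted by expression level, 3 members rose and 4 fell in PBRT16 and 13 rose in PBRT15 against parental cells. Between the lines 9 members fell in PBRT16. Of all genes, 23.8% rose and 22.7% fell in PBRT16, 23.9% rose in PBRT15 and 12.1% fell between the lines. The cause was not tested. With 4 libraries in the fit, which leaves fewer degrees of freedom, 1 member rose and 1 fell in PBRT16 and 6 rose in PBRT15 against parental cells. Between the lines 1 member, ELOVL6, fell in PBRT16. All genes gave 19.5% rises and 17.6% falls in PBRT16, 18.9% rises in PBRT15 and 4.43% falls between the lines. With a fold of at least 2 also required, 1 rose and 1 fell in PBRT16 and 5 rose in PBRT15 against parental cells, and 4 fell in PBRT16 against PBRT15. This removed FADS2 in both lines, SQLE, NSDHL and EBP in PBRT15, FDPS in PBRT16, and NSDHL between the lines. The share of all genes at this fold was not counted.

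Deviations of libraries with the same replicate number correlated at 0.136 (PBRT16 and PBRT15), 0.038 (PBRT16 and parental) and 0.018 (PBRT15 and parental) across genes. Each deviation was taken from the group mean. These low values cannot show whether same-numbered libraries were handled together, which the labels do not state. With the number as a replicate block, 1 member rose and 2 fell in PBRT16 and 8 rose in PBRT15 against parental cells. Between the lines 2 members, MVK and ELOVL6, fell in PBRT16. Of all genes, 20.1% rose and 17.5% fell in PBRT16, 20.1% rose in PBRT15 and 5.85% fell between the lines.

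Leaving out 1 library at a time gave 0 to 3 rises and 0 to 1 falls in PBRT16, 3 to 7 rises and 0 to 1 falls in PBRT15 against parental cells, and 0 to 3 falls in PBRT16 against PBRT15. Medians of the members ranged from -0.13 to 0.30, from 0.43 to 0.65 and from -0.72 to -0.15 in these comparisons. In each of these fits fewer of all tested genes rose and fewer fell than with all libraries, so low counts were not particular to the members. The shares of all tested genes that rose against parental cells, and that fell between the lines, are given above. A left-out library leaves a lone sample that is assumed to vary like the other groups. In PBRT16 against parental cells, the log2 fold change changed sign for FDFT1 (-0.49 to 0.24), NSDHL (-0.18 to 0.10), DHCR7 (-0.72 to 0.10), INSIG1 (-0.83 to 0.24), ACLY (-0.19 to 0.10), SREBF2 (-0.10 to 0.35), SCAP (-0.26 to 0.19), ACACA (-0.11 to 0.37), FASN (-0.25 to 0.65), SCD (-0.22 to 0.88) and CYP51A1 (-0.41 to 0.024). In PBRT15 against parental cells it did so for FDPS (-0.016 to 0.36), CYP51A1 (-0.14 to 0.35), SREBF2 (-0.21 to 0.11), DHCR7 (-0.42 to 0.19) and FADS1 (-0.025 to 0.25). In PBRT16 against PBRT15 it did so for HSD17B7 (-0.37 to 0.13), DHCR7 (-0.60 to 0.22), STARD4 (-0.83 to 0.0046), ACACA (-0.41 to 0.072), SC5D (-0.16 to 0.44), SREBF2 (-0.043 to 0.41) and FADS1 (-0.038 to 0.33). No member that passed in that comparison changed sign.

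Over 17 alternatives, which leave out the fold of at least 2, values of single members kept their direction and their side of the threshold in 1365 cases, lost the call in 103, gained it in 30 and changed sign in 32. MVK, LSS and FADS2 rose in PBRT15 against parental cells under every scaling, pseudocount, filter, fit and left-out library run, and FADS2 was lost only where a fold of at least 2 was required, with a fold of 1.998. With 2 libraries per group and normalized values only, small differences cannot be resolved, and the absence of a call is no sign of equal levels.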
